A study of Mus musculus with 6 samples.

Results

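iPS5 is 1 of 3 mouse induced pluripotent stem (iPS) cell lines that were hybridised against RNA pooled from embryonic stem (ES) cells on 2-colour arrays. It was taken by its label, which 2 of the 6 arrays carry. Array 1 held iPS5 RNA in the dye Cy3 and the ES pool in Cy5, and array 2 held them the other way round. The line was grown from a colony of OG2 mouse embryonic fibroblasts, in which green fluorescent protein reports Oct4 activity. They received pMX retroviruses for 16 genes. Of these 4 were reprogramming factors (c-Myc, Klf4, Oct4 and Sox2) and 12 were TFIID subunits: TBP, TAF13, TAF12, TAF11, TAF10, TAF9, TAF7, TAF6, TAF5, TAF4b, TAF4 and TAF3. Colonies with the fluorescent reporter on were picked after 12 days, so activity of Oct4 was a condition of entry. The other lines, iPS1 and iPS4, were made the same way, with 2 arrays each. The ES cells carried the same OG2 reporter. Both kinds of cell were kept with LIF on irradiated fibroblast feeders, whose RNA can be in either sample.

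The labels do not say whether the 2 iPS5 arrays had separate RNA, so their spread may be technical. The p-values measure only that spread, pooled with that of the other lines' array pairs. The ES pool was 1 sample, so variation among ES cultures is left out. Each iPS line stands for 1 clone. In RNA from a whole culture, fewer cells of a type and less RNA per cell cannot be told apart.

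TFIID recognises core promoters and seeds assembly of the transcription machinery. It carries the TATA-binding protein TBP and a set of TBP-associated factors, the TAFs, and positions RNA polymerase II. Mouse pluripotent cells can be held in a naive state, which resembles the epiblast before implantation and needs LIF signalling through STAT3, with factors such as Klf4, Klf5, Tbx3, Esrrb and Nanog. They can also move towards a primed state, marked by Fgf5, and from there towards the primitive streak, marked by the T-box factor T (Brachyury). Primitive endoderm, the other product of the inner cell mass, is marked by Gata6 and by endocytic receptors such as cubilin.

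The iPS5 arrays were dim. The median signal of the gene probes over local background was 25.9 scanner units in the iPS channel and 28.9 in the ES channel of array 1, and 17.9 and 20.1 on array 2. On the arrays of iPS1 and iPS4 it lay between 63.5 and 125.7 per channel, so no channel of iPS5 reached the dimmest of theirs. The local background itself, at 34.0 in every iPS5 channel, was about the same as on the other arrays, where it was 34.0 to 37.0. A probe was taken as above background where its signal exceeded percentile 95 of the dimmest repeated control reporter, which has 355 spots. By that level 69.9% and 77.8% of the 41174 gene probes were above background in the iPS5 channel of arrays 1 and 2, and 80.5% and 64.8% in the ES channel. The channels of the other arrays had 79.1% to 84.1%. By the next dimmest control reporter, with 604 spots, the iPS5 channel had 46.9% and 63.1%. No gene spot of the iPS5 arrays was saturated.

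**Figure D1:**
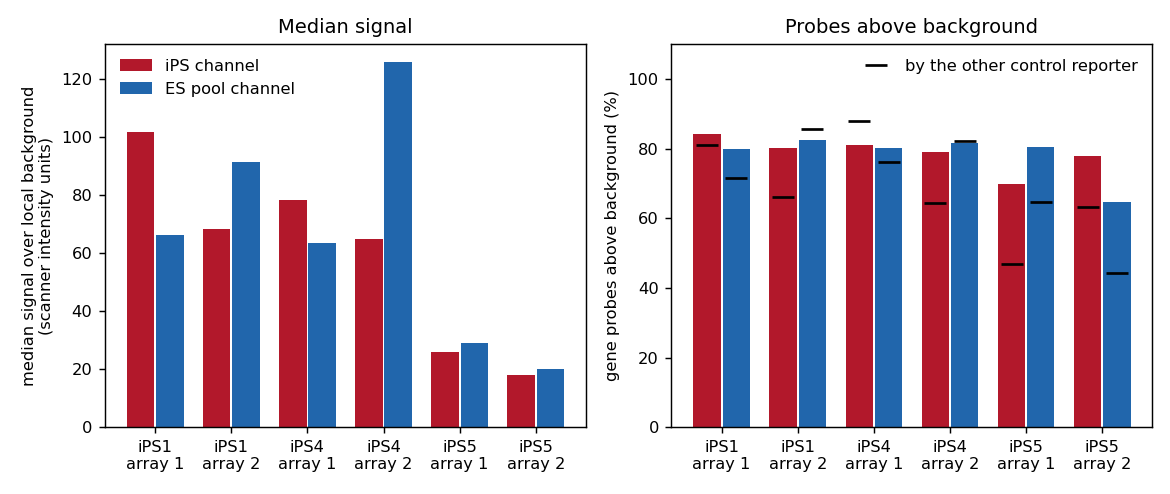
Left, median signal of the gene probes over local background, in scanner intensity units, for both channels of each of the 6 arrays. Right, percent of gene probes above background, with bars for the main background level and ticks for that of the other control reporter. The 4 channels of the iPS5 arrays have medians of 17.9 to 28.9, below the 63.5 to 125.7 of the others.

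This dimness bears on every ratio that follows. Before logs were taken, a constant of 50 was added to each background-corrected signal, and on these arrays that is more than the median signal. The log2 ratios of dim probes are thereby drawn towards 0. Their standard deviation over probes was 0.252 on array 1 and 0.208 on array 2 of iPS5, against 0.291 to 0.327 on the other arrays. With no constant added the order turned: 0.502 and 0.532 on the iPS5 arrays against 0.418 to 0.442. The 2 iPS5 arrays agreed in bright probes and not in dim ones. Across probes, which are not independent, their ratios correlated with r = 0.726 over the brightest 8235 probes and 0.694 over the next 8235. Over the 8234 probes of middle brightness r was 0.344, and over the dimmest 8235 it was -0.136. Of the brightest of these groups 54.1% of probes were called, and 0.0486% of the dimmest.

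Against the ES pool, 8040 of 41174 probes (19.5%) were called in iPS5 at an adjusted p under 0.05, by limma's moderated test with the Benjamini-Hochberg adjustment. Of these 4185 were higher in iPS5 (10.2% of all) and 3855 lower (9.36%). Past 2-fold there were 109 higher (0.265%) and 119 lower (0.289%) probes. Taking each gene by its brightest probe, 2549 of 18295 genes (13.9%) were higher and 2384 (13%) lower. Past 2-fold there were 71 higher (0.388%) and 89 lower (0.486%) genes. The shares of 13.9% and 13% are the background for the counts of genes against the ES pool in the lists that follow. Dim genes, which were rarely called, are in that background. Among the 7671 genes outside chromosome 8 in the brighter part of those above background, 26.5% were higher and 22.7% lower. For lists of bright genes these shares are the nearer comparison. The number called fell to 2235 with median centring in place of loess, to 2968 without a dye term and to 1704 when the iPS5 arrays were fitted alone. The 30 genes named next were called under all 3.

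**Figure D2:**
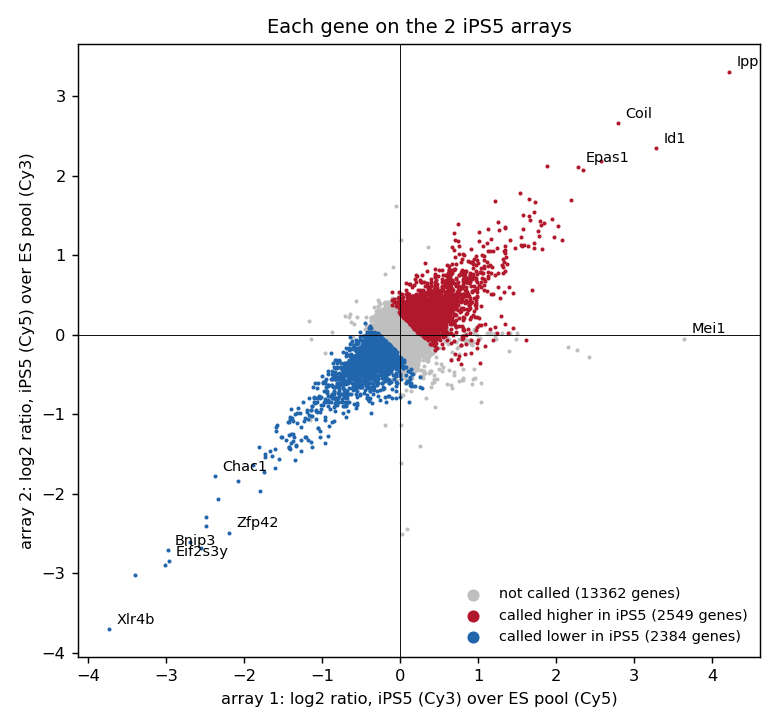
Each point is a gene, with its log2 ratio of iPS5 over the ES pool on array 1 (horizontal) and on array 2 (vertical). The 2549 genes called higher are red, the 2384 called lower are blue and the 13362 not called are grey. Ipp and Xlr4b mark the ends. Mei1 stands off to the right, high on array 1 alone.

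The genes highest in iPS5 came from several families. Ipp, a Kelch-repeat gene named for a promoter that lies in an intracisternal A particle, had log2 ratios of 4.22 on array 1 and 3.31 on array 2. Its fold was 13.6, the highest of these genes. Of its 4 probes 2 were called, and the lowest gave 0.02. Id1, an inhibitor of basic helix-loop-helix factors and a target of BMP signalling, stood at 3.28 and 2.35, or 7.03-fold, by its brighter probe. Its other probe was called too, with a mean of 2.75. Coil, which encodes coilin, the scaffold of Cajal bodies, stood at 2.79 and 2.66, or 6.60-fold. Its other probe gave a log2 ratio of 0.03. Epas1, the oxygen-regulated factor HIF-2alpha, stood at 2.28 and 2.11, with 2 of its 3 probes called and the lowest at 0.16. Plagl1, an imprinted zinc finger factor, stood at 2.35 and 2.08 with its other probe at 0.07. Wtap, which belongs to the enzyme complex writing m6A on RNA, stood at 1.73 and 1.67 by 1 of its 3 probes. Ly6e, a lipid-anchored surface protein, stood at 1.88 and 2.12. Pros1, which encodes the anticoagulant protein S, stood at 1.84 and 1.41. The remaining 7 of the 15 highest were the interferon-induced Irgm1, Ifi27 and Tgtp2 and the naive or LIF-linked Jam2, Klf5, Gbx2 and Tbx3. The SE of these 15 log2 ratios was 0.0364 to 0.128 and the smallest mean 1.63, a gap that follows from choosing the highest called genes.

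At the other end stood X-linked and stress-responsive genes. Xlr4b, of a lymphocyte-regulated family on the X chromosome, had log2 ratios of -3.73 and -3.70, a 13.1-fold lower signal. Its other probe gave -0.08 and was not called. Eif2s3y, the Y-linked gene of a translation initiation subunit, stood at -2.97 and -2.85, with iPS5 above background on 1 array alone. Bnip3, a mitophagy receptor induced by low oxygen, stood at -2.98 and -2.71, 7.19-fold lower. Ddit4, an inhibitor of the growth kinase mTORC1, stood at -2.69 and -2.60, 6.27-fold lower. Klhl13, an X-linked adaptor of a cullin ubiquitin ligase, stood at -2.56 and -2.68 on 1 of its 4 probes. Rpgrip1, a protein of the photoreceptor cilium, stood at -2.49 and -2.41, and Efhc2, an EF-hand gene, at -2.49 and -2.29. Of the 5 probes of Rpgrip1 2 were called, and the highest gave 0.02. Zfp42 (Rex1), a zinc finger marker of pluripotent cells, stood at -2.19 and -2.49, 5.06-fold lower on its brighter probe, with the other lower too. Chac1, a glutathione-degrading enzyme of the stress response, stood at -2.37 and -1.78. Anxa2, a membrane-binding annexin, stood at -1.80 and -1.97, with 2 of its 3 probes called and the highest at -0.02. Krt18, a keratin of simple epithelia, stood at -1.89 and -1.64. The other 4 of the 15 lowest were Xlr genes. Both iPS5 arrays had the same sign for each of these 30 genes, as the rule for naming them required.

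**Figure D3:**
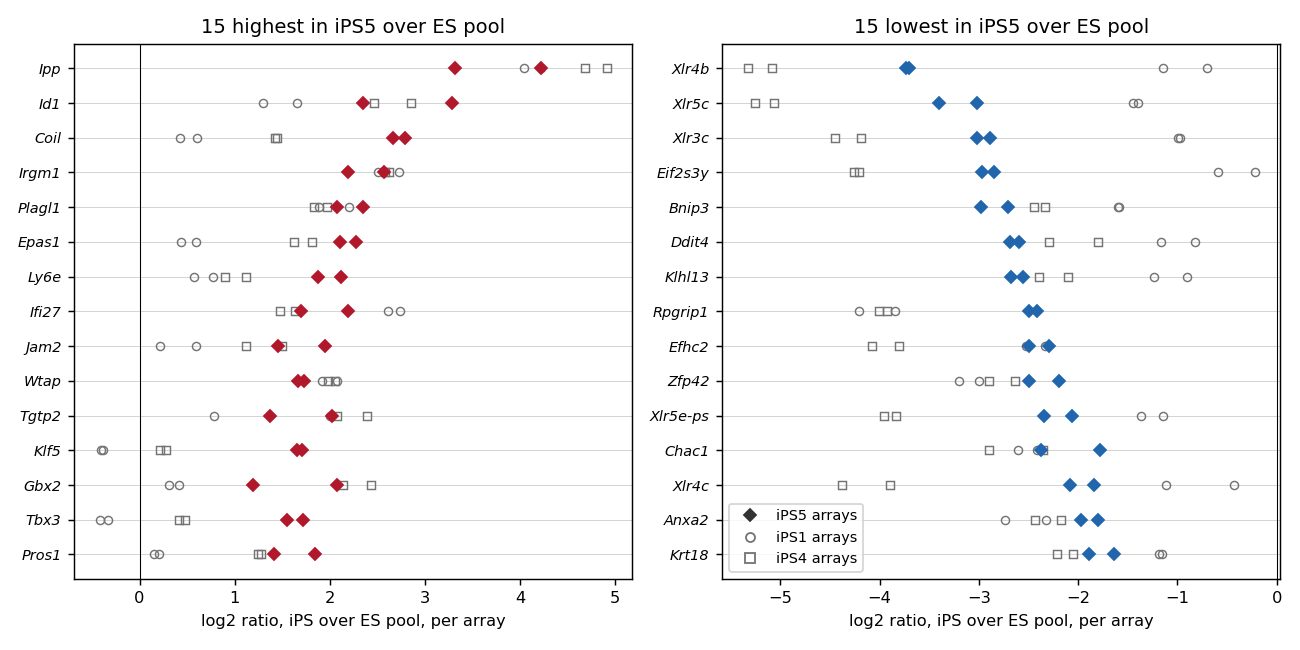
Log2 ratio of iPS over the ES pool on each array for the 15 genes highest (left) and the 15 lowest (right) in iPS5. Filled diamonds are the 2 iPS5 arrays, open circles iPS1 and open squares iPS4. All 6 arrays share the ES pool. For Coil, Epas1, Ly6e, Klf5, Tbx3 and Pros1 both iPS5 arrays lie to the right of the other 4.

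Genes of pluripotency were higher more often than lower. Of 39 measured, 20 (51.3%) were higher and 9 (23.1%) lower, with a median log2 ratio of 0.22 where the median of all genes was 0. The higher group held naive factors. Jam2, a junctional adhesion molecule, stood at 1.95 and 1.46. Klf5, a Kruppel-like factor, stood at 1.65 and 1.71, or 3.21-fold, by its brightest probe. All 3 of its probes were called higher, with mean log2 ratios of 0.48 to 1.92. Gbx2, a homeobox factor downstream of STAT3, stood at 2.08 and 1.19. Tbx3, a T-box factor of the naive state, stood at 1.72 and 1.55. These 4 are among the 15 highest genes. That they were higher on both arrays, by margins far over their SE of 0.0365 to 0.117, follows from that choice.

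The 10 markers of pluripotent cells were present in iPS5 but differed from the ES pool in both directions. All were above background in iPS5 on both arrays. Nanog stood at 0.79 and 0.82 and was 1.74-fold higher (adjusted p = 4.59e-05). Pou5f1 (Oct4) stood at 0.75 and 0.57, Sall4 at 0.61 and 0.72 and Esrrb at 0.63 and 0.25, all called higher. Sox2 had 0.08 and -0.22, Lin28a 0.05 and 0, and Dppa5a -0.02 and 0.52, and these 3 were not called. Zfp42, Tdgf1 (-0.69 and -0.16), a co-receptor of Nodal, and Utf1 (-0.59 and -0.13), a chromatin factor, were lower. Dppa3 (Stella), which shields the maternal genome from demethylation in the zygote, was lower at -0.70 and -1.03.

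Of the 4 transduced reprogramming factors 3 were called higher and none lower. Myc stood at 1.33 and 1.05, 2.28-fold higher, by its brightest probe. All 3 of its probes were called higher, with mean log2 ratios of 0.38 to 1.19. Klf4 stood at 0.97 and 0.81, or 1.85-fold, and Pou5f1 was 1.58-fold higher. No value separates RNA of a vector from RNA of the gene in the genome. Among the 12 transduced TFIID subunits Taf7 (0.94 and 0.57), Taf13 (0.70 and 0.42) and Taf12 (0.40 and 0.41) were called higher, by 1.68-fold, 1.48-fold and 1.32-fold. The other 9 had mean log2 ratios of -0.14 to 0.15, and no adjusted p under 0.05. Tbp stood at 0.19 and -0.02. Taf4b was above background in iPS5 on neither array, so its ratio of 0.01 is no measurement of its level. Taf4 was not called by its brightest probe (mean 0.09), while its other probe was, at 0.21. With probes above background in either channel alone, 5 of the 12 were called. Of 27 other TFIID and general initiation factors, 10 were higher and 5 lower, and 6 and 7 without array 2. The largest were Gtf2f1, a subunit of TFIIF, at 0.81 and 0.75, and Gtf2e2, a subunit of TFIIE, at -0.71 and -0.43.

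Of 27 genes of primitive streak and mesoderm 10 (37.0%) were higher in iPS5 than in the ES pool and 1 was lower, with a median of 0.05. With no constant added to the signals the median was 0.33, with 11 higher and 2 lower. T stood at 0.88 and 0.37, 1.54-fold higher. Axin2, a feedback inhibitor of Wnt signalling, stood at 1.01 and 0.21. The largest was Bmp4, a signalling ligand of the streak and of the naive state alike, at 1.80 and 1.38, 3.01-fold higher. Lefty2, a secreted Nodal antagonist, followed at 1.22 and 1.69. Gsc (0.10 and 0.09), Mixl1 (-0.02 and 0.10), Mesp1 (-0.07 and -0.04), Tbx6 (-0.04 and 0.04) and Evx1 (0.09 and -0.33), regulators of mesoderm and endoderm, were not called. Gsc and Mixl1 had an ES channel above background on neither array. Tbx6 was above background in iPS5 on neither array, so its ratio is no measurement of its level. Of 18 genes of the primed epiblast 5 were higher and 5 lower. Sox11, an SRY-related factor, was the highest at 0.97 and 0.44 and Pim2, a kinase, the lowest at -0.92 and -0.49. Zic2, a zinc finger factor, stood at -0.78 and -0.48 and Dkk1, a Wnt antagonist, at 0.64 and 0.54.

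Primitive endoderm genes leaned higher in iPS5. Of 28 measured, 10 (35.7%) were higher and 2 (7.14%) lower, with a median of 0.12. Cubn, the endocytic receptor cubilin, stood at 1.34 and 0.80, 2.10-fold higher. Apoe, a lipoprotein component, stood at 0.74 and 1.39. Laminin chains of the basement membrane rose with them: Lama1 stood at 1.26 and 0.78 and Lamc1 at 0.81 and 1.02. The other probe of Lama1 gave 0.05. The transcription factors Gata6 (0.79 and 0.44) and Sox7 (0.60 and 0.34) and the cubilin partner Amn (0.32 and 0.25) were called higher. Gata4 (0.12 and 0.07), Sox17 (0.12 and 0.06) and the adaptor Dab2 (0.27 and -0.03) were not. The summed signal of the 7 markers was 10.65 and 10.55 on the log2 scale in iPS5 and 10.02 and 10.20 in the ES pool.

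Other cell types were set against these. Of 47 fibroblast genes 6 were higher and 15 (31.9%) lower, with a median of -0.12. Dcn, the matrix proteoglycan decorin, was the lowest at -1.14 and -0.95, with its other probe at -0.03. Lum (lumican) stood at -0.80 and -0.56 and Timp1, a protease inhibitor, at -0.76 and -0.50. All 10 fibroblast markers were above background in both channels on both arrays. Their summed signal on the log2 scale was 11.37 and 11.38 in iPS5 and 11.90 and 11.83 in the ES pool. The part of feeder cells in these levels was not tested. Of 21 trophectoderm genes 4 were higher and 6 lower, of 25 neural genes 3 and 3, and of 25 endothelial and blood genes 3 and 1. The last list had 2 and 3 without array 1 and 6 and 1 without array 2. Of the trophectoderm markers Eomes (0.52 and 0.16) was called higher and Krt7 (-0.93 and -0.63) lower, while Cdx2, Elf5 and Gata3 were not called. The other probe of Krt7 gave -0.16. All 5 measured neural markers and all 6 of endothelium and blood were not called. Cdx2 had an ES channel above background on neither array, and Ptprc and Tie1, of blood and endothelium, had an iPS5 channel above it on neither.

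Signalling genes were examined by pathway. Of 21 BMP and Id genes 7 were higher and 3 lower, with Id3 at 0.45 and 0.61 behind Id1 and Bmp4. Id2 stood at 0.65 and 0.37. Of 15 LIF and STAT3 genes 6 were higher and 1 lower. Socs2, a suppressor of cytokine signalling, stood at 1.05 and 1.01. Il6st, the shared receptor chain gp130, stood at 0.62 and 0.64. Of 20 FGF-ERK feedback and immediate early genes 8 were higher and 5 lower. The feedback inhibitors Spry4 (1.69 and 0.56) and Spry2 (0.92 and 0.92) and the receptor Epha2 (0.70 and 0.83) led. The other probe of Spry4 gave 0.06 and that of Spry2 -0.04. Ier3, an immediate early survival gene, stood at the other end at -1.75 and -1.72. Of 14 Nodal and Lefty genes 4 were higher and 3 lower, with the convertase Pcsk6 at 0.98 and 0.58 and the SMAD co-repressor Skil at -0.72 and -0.89. With no constant added, the FGF-ERK list had 5 higher and 6 lower, and without array 2 the Nodal list had 3 higher and 4 lower. Of 23 Wnt targets 11 (47.8%) were higher and 3 lower, with Sfrp1, a secreted Wnt antagonist, highest at 1.82 and 1.08.

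Of 57 interferon-response genes 23 (40.4%) were higher and 7 (12.3%) lower, the latter share being near that of all genes. Irgm1, a GTPase of the defence against intracellular pathogens, stood at 2.57 and 2.19, 5.20-fold higher. Of its 3 probes 2 were called, and the lowest gave 0.06. Ifi27 stood at 2.19 and 1.70. Tgtp2, another GTPase of this family, stood at 2.02 and 1.37, with its ES channel above background on 1 array. Its other probe gave 0.1. Oas2, a sensor of double-stranded RNA, stood at 1.71 and 1.09. H2-K1, a class I antigen-presenting molecule singled out after its values were seen, was the lowest at -0.86 and -0.80. Of the 57 genes 42 had a RefSeq promoter window, from 250 bases before to 50 after the start, on GRCm38.p6. The core of the interferon-stimulated response element, searched on either strand, lay in the windows of 22 of the 42 genes. Over windows, since a gene can have several, that is 46.0% against 3.44% of all 32851. Of the 23 genes called higher 13 held it, and of the 7 called lower 3 did. The 23 and the 7 are counted whether or not a gene had a window. The promoters of Irgm1 (chr11:48871421-48871620, minus strand) and Tgtp2 (chr11:49064213-49064412, minus strand) are shown, each as the 200 bases before the start with the matches in capitals, because they are the most raised genes that hold it there. The 2 matches of Irgm1 overlap. The list was drawn up as interferon targets, so a match describes the list and not its behaviour in iPS5.
Irgm1: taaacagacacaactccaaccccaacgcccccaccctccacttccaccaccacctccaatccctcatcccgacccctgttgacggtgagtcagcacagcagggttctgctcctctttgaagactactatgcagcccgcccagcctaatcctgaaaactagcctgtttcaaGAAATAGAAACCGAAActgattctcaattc
Tgtp2: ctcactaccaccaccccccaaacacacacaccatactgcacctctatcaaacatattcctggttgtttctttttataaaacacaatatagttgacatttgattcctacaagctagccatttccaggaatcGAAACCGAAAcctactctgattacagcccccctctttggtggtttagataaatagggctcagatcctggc

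Genes of low oxygen and glycolysis were mostly lower. Of 33 hypoxia-induced genes outside glycolysis 21 (63.6%) were lower and 3 (9.09%) higher, with a median of -0.31. Next to Bnip3 and Ddit4 in size stood Adm, the vasodilator peptide adrenomedullin, at -1.59 and -1.21. Epas1 was the highest. Of 25 glycolysis genes 16 (64.0%) were lower and 2 higher, with a median of -0.61. Pfkp, a phosphofructokinase, stood at -1.74 and -1.54. Aldoc, an aldolase, stood at -1.59 and -1.16. Pgk1, phosphoglycerate kinase, stood at -1.38 and -1.25, with an SE of 0.317 and an adjusted p of 0.0272 by limma. Tpi1, triosephosphate isomerase, stood at -1.43 and -1.10. Gapdh had 0.02 and 0.20 and was not called. It was chosen after its values were seen. Of 40 oxidative phosphorylation genes 5 were higher and 9 lower, with a median of 0.02. That list has no settled direction: it had 1 higher and none lower with no constant added to the signals, 6 and 4 without array 1, and 10 and 10 without array 2.

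The core of the hypoxia response element, ACGTG on either strand, is short and lay in 19.6% of all promoter windows. It lay in 59.4% of the windows of the hypoxia genes and in 48.6% of those of the glycolysis genes. The hypoxia list was drawn up as genes induced by low oxygen, so a match describes the list and not its behaviour in iPS5. Among the lower genes the core was found for 10 of the 21 hypoxia genes and 8 of the 16 glycolysis genes. Among the higher genes it was found for 2 of the 3 hypoxia genes and 1 of the 2 glycolysis genes. The lower and higher genes are counted whether or not they had a window, which 26 of the 33 hypoxia genes and 24 of the 25 glycolysis genes had. The 200 bases before the start of Bnip3 (chr7:138909507-138909706, minus strand), Ddit4 (chr10:59951771-59951970, minus strand) and Pgk1 (chrX:106186900-106187099, plus strand) are shown as the most lowered genes of the lists that hold it there, Pgk1 being that of glycolysis. Capitals mark the core, and in Bnip3 matches on both strands overlap.
Bnip3: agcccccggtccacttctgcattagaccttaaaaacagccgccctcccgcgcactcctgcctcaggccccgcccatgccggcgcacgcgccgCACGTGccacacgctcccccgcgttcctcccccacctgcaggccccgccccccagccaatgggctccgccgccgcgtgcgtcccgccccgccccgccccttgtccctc
Ddit4: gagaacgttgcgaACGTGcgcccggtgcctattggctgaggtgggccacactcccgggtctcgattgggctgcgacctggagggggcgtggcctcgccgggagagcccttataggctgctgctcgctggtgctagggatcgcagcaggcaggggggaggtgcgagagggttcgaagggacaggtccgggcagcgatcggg
Pgk1: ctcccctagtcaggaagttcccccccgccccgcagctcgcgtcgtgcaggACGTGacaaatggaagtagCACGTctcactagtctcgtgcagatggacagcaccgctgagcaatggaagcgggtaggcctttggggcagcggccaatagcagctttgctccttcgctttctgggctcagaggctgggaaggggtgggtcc

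The amino acid response was lower as well. ATF4 is the factor that turns on amino acid synthesis, transport and tRNA charging when amino acids run short. Of 45 genes of its response 32 (71.1%) were lower in iPS5 and 4 (8.89%) higher, with a median of -0.45. Chac1 was the lowest. Nupr1, a stress-induced chromatin protein, stood at -1.74 and -1.50, 3.07-fold lower. Asns, asparagine synthetase, stood at -1.43 and -1.42 and Psat1, of serine synthesis, at -1.43 and -1.41. For the latter pair both arrays gave nearly the same ratio. Atf4 itself, named after its value was seen, stood at -0.51 and -0.55. The C/EBP-ATF element core, TGATGNAA on either strand, lay in 29.5% of the windows of these genes and in 3.97% of all windows. The list was drawn up as genes of this response, so a match describes the list and not its behaviour in iPS5. The core was found for 13 of the 37 genes with a window, 10 of them among the 32 lower genes and none among the 4 higher. The 32 and the 4 are counted whether or not a gene had a window. Atf3, Slc7a11 and Fgf21 hold it too and were not called, with mean log2 ratios of -0.16, -0.04 and -0.07. Chac1 (chr2:119351042-119351241, plus strand), Nupr1 (chr7:126625471-126625670, minus strand) and Asns (chr6:7693210-7693409, minus strand) are the most lowered that hold it in the 200 bases before the start, with the core in capitals. Counted from the start, its first base is at -193 in Chac1, -110 in Nupr1 and -23 in Asns.
Chac1: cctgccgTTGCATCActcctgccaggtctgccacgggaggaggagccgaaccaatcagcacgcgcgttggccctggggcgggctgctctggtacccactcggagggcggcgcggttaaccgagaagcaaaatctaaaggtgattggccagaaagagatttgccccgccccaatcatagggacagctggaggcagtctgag
Nupr1: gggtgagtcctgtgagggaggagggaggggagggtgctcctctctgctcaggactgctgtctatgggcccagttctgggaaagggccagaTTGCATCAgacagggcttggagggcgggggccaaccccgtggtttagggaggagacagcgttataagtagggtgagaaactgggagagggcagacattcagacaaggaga
Asns: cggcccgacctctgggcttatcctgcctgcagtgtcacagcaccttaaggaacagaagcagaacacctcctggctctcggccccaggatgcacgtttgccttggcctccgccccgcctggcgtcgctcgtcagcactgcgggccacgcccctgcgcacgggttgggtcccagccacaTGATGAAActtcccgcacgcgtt

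Cholesterol synthesis was the list with the highest share of lower genes among those of 10 or more. Of 20 measured, 18 were lower and 1 higher. Msmo1, a sterol oxidase, stood at -1.36 and -1.28, 2.49-fold lower. Fdps, which makes farnesyl diphosphate, stood at -1.21 and -1.28, 2.37-fold lower. Dhcr7, the last reductase of the pathway, stood at -0.84 and -0.88. Ebp, a sterol isomerase, went the other way at 1.34 and 1.03, 2.27-fold higher. Of these 4 the arrays were farthest apart for Ebp. Choosing among called genes already favours those on which the arrays agree. The sterol regulatory element core TCACNCCAC lay in 1 of the 19 windows of the list, that of Hmgcs1, and in 1.24% of all windows.

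Epithelial genes were lower without a counterpart. Of 26 junction and keratin genes 17 (65.4%) were lower and none higher, with a median of -0.46. Krt18 and its filament partner Krt8 (-1.35 and -0.99) fell together with Pkp2, plakophilin of the desmosome, at -1.27 and -1.16. Crb3, a polarity protein, stood at -0.97 and -1.36. Of 17 annexins and S100 proteins 7 were lower and 4 higher. S100a6 stood at -1.22 and -1.05 behind Anxa2. S100a11 was the highest at 0.34 and 0.65.

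Germ line genes and X-linked families were lower. Of 32 germ line and meiosis genes 19 (59.4%) were lower and 2 higher, with a median of -0.26. Mael, of the piRNA pathway, stood at -1.27 and -1.46. Hormad1 and Sycp3, proteins of the meiotic chromosome axis, stood at -1.14 and -1.35, and at -0.98 and -0.85. Tdrd12, a Tudor protein of the piRNA pathway, stood at -0.91 and -0.85. Mei1, a meiosis gene, read 3.64 on array 1 and -0.05 on array 2 and was not called (adjusted p = 0.0767). It was named because it is the gene farthest from agreement in these lists. Of 9 genes of the two-cell-like state 4 were lower and 1 higher, with Zscan4c at -0.57 and -0.74.

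Of the 7 Xlr genes measured 6 were lower and none higher. After Xlr4b came Xlr5c at -3.40 and -3.02 and Xlr3c at -3.02 and -2.89. Xlr5c was above background in iPS5 on 1 array alone, so its ratio is uncertain. Xlr5e-ps and Xlr4c were above background in iPS5 on neither array, so their signals were at least 4.59-fold and at least 3.88-fold lower. Xlr itself, at -0.09 and 0.03, was not called. Members of this family are close copies, and a probe may read several of them. Of the 4 Rhox genes measured, homeobox genes of the X chromosome, 3 were lower, with Rhox6 at -1.13 and -0.90. Of 7 sex-linked genes Eif2s3y was the only one called. Its neighbours on the Y chromosome in this list, Uty (-0.46 and -0.22), Kdm5d (-0.63 and 0.16), Zfy1 (0.04 and 0.01) and Usp9y (0 and 0.04), were not.

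Imprinted genes went both ways, 8 of 42 higher and 10 lower. Igf2, a fetal growth factor, stood at -1.64 and -1.53, 3.00-fold lower, against Plagl1 at the top. Sgce, a sarcoglycan, stood at -0.95 and -0.71. Of 18 DNA methylation genes 7 were higher and 5 lower. The dioxygenase Tet2 stood at 0.98 and 0.67, the maintenance factor Uhrf1 at 0.84 and 0.80, and the cofactor Dnmt3l at 0.67 and 0.89. The co-repressor Trim28 stood at 0.60 and 0.88. These 4 were higher on both arrays by at least 0.60, which naming the largest called members of a list favours.

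Among genes of growth, replication leaned higher and mitosis did not. Of 46 S phase genes 23 (50.0%) were higher and 6 lower, with a median of 0.14. Ccne1, cyclin E1, stood at 0.97 and 0.88 and Mcm4, of the replicative helicase, at 0.46 and 0.69. The mean over all probes of Mcm4 was -0.19 and not called, so its direction rests on the probe. Of 37 mitosis genes 7 were higher and 10 lower. Pttg1, securin, was the lowest at -1.41 and -1.44. Of 29 p53 targets and cell cycle inhibitors 10 were higher and 6 lower. Perp, a desmosomal p53 target, stood at 1.08 and 0.87 and Gadd45b, a stress sensor, at -1.03 and -1.21. Of 29 heat shock genes 9 were higher and 7 lower, with Hsph1 at 1.17 and 1.21. Without array 2, 14 of the heat shock genes were higher and 8 lower, and without array 1 only 4 mitosis genes were higher and 6 lower. The p53 list had 8 each way without array 2. The arrays went opposite ways for the 42 cytosolic ribosomal protein genes, so their count of 5 higher and 2 lower gives no direction. With array 1 alone kept from iPS5, 25 were higher and 1 lower (median 0.25), and with array 2 alone 5 were higher and 29 lower (median -0.39). Rps12 stood at 0.91 and 0.70, higher on both.

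**Figure D4:**
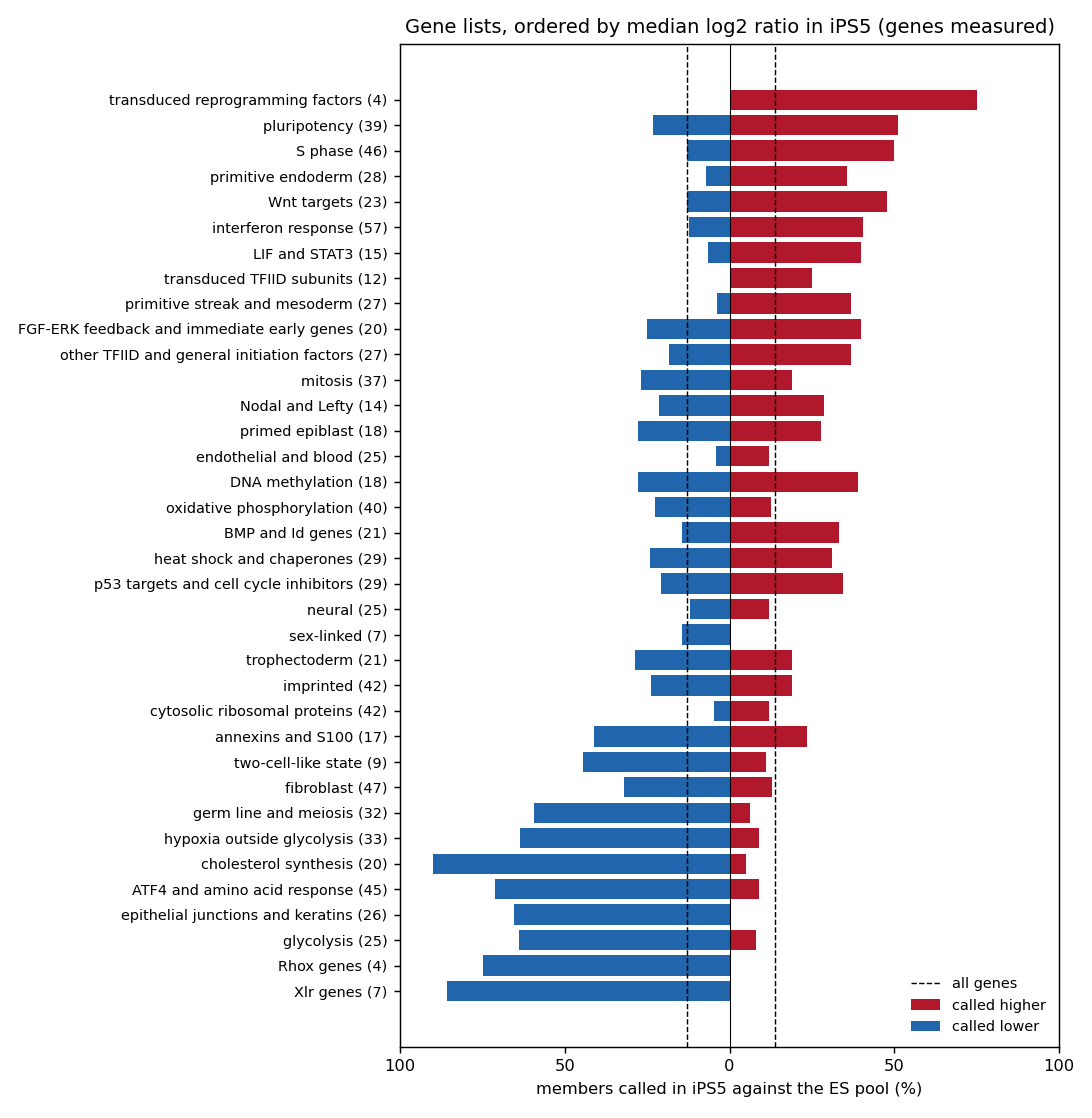
Percent of measured members called higher (red, right) and lower (blue, left) in iPS5 against the ES pool for the 36 gene lists, with the number of genes measured in brackets. Lists are ordered by their median log2 ratio, and dashed lines mark the 13.9% and 13% of all genes, dim ones included. Of the 20 cholesterol synthesis genes 18 are lower, and the ATF4 list reaches 71.1%.

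iPS5 was then set against the mean of iPS1 and iPS4, a comparison in which the ES pool cancels. By limma with the Benjamini-Hochberg adjustment, 1999 genes (10.9%) were higher in iPS5 and 1884 (10.3%) lower. In 1901 of these 3883 genes (49.0%) iPS5 lay nearer to the ES pool than the other lines did, on the same side of it. In 602 it lay farther, and in 1380 the signs were opposite. The constant added to the signals draws dim iPS5 ratios towards 0, that is, nearer to the ES pool. Its part in the count of 1901 was not tested. Among probes 3316 (8.05%) were higher and 3818 (9.27%) lower, and past 2-fold 56 (0.136%) and 52 (0.126%). The number of calls depends on the constant added to the signals. With no constant none of the 41174 probes was called, although 9951 had an unadjusted p under 0.05. The authors' deposited ratios gave 5870 called probes against 7134 here, median centring gave 574, the fit without a dye term 1396 and the fit without iPS1 2685. The 20 genes named next kept their direction with no constant, with adjusted p of 0.0556 to 0.151.

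Of the 10 genes most above the other lines, Srgn and Cubn are in the primitive endoderm list and Klf5, Tbx3 and Nr0b1 in that of pluripotency. Srgn, the proteoglycan serglycin, had log2 ratios over the ES pool of 1.02 and 0.79 in iPS5, -1.55 and -1.40 in iPS1 and -2.45 and -2.46 in iPS4. The difference for Srgn was 2.87 (SE 0.0592) with an adjusted p of 2.2e-05 by limma. Cubn had 1.34 and 0.80 in iPS5 and -0.61 to -1.67 in the others. In both genes iPS5 stood above the ES pool and the other lines below it. Klf5, at 1.65 and 1.71, compared with -0.41 to 0.28. Tbx3, at 1.72 and 1.55, compared with -0.42 to 0.48. Nr0b1 (Dax1), a nuclear receptor of the naive network, had 1.78 and 1.24 against -0.60 to 0.89. Apobec2, of a deaminase family, had 1.97 and 1.23 against -0.30 to 0.62, and Aard 1.57 and 1.33 against -0.53 to 0.57. Coil was above the ES pool on all 6 arrays, and highest in iPS5. Thumpd1, an adaptor of tRNA acetylation, and Rpgrip1 were below the ES pool on all 6 arrays. Thumpd1 was less far below in iPS5, at -1.81 and -1.41 against -3.18 to -3.43. Its iPS5 channel was above background on 1 array alone, and with no constant added its iPS5 ratios were -3.87 and -3.65 against -4.30 to -4.76. Its other probe gave 0.1 in iPS5 over the ES pool.

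Of the 10 genes most below the other lines, T, Sp5, Gsc and Axin2 are in the streak list and Fgf5 in that of the primed epiblast. T had 0.88 and 0.37 in iPS5, 3.65 and 3.77 in iPS1 and 2.87 and 3.27 in iPS4, a difference of -2.76 (SE 0.0791, adjusted p = 2.99e-05 by limma). Sp5, a zinc finger target of Wnt signalling, had 0.68 and 0.46 against 2.64 to 3.38. With no constant added, T stood at 2.19 and 1.43 in iPS5 against 4.05 to 4.87, and Sp5 at 2.07 and 1.88 against 4.03 to 4.52. Fgf5, a ligand of the primed epiblast, had 0.39 and 0.15 against 1.32 to 2.85. Axin2 had 1.01 and 0.21 against 1.21 to 2.55. Frem2, a matrix protein, had 0.97 and 0.57 against 1.94 to 2.30. Ppp4r4, a phosphatase regulator, had 0.31 and 0.04 against 1.58 to 2.76. Slc39a8, a metal ion transporter, had -0.01 and -0.02 against 0.97 to 2.43. Gsc had 0.10 and 0.09 against 0.60 to 2.50, with its ES channel above background on neither iPS5 array. Dppa3 was lower than the ES pool in iPS5, at -0.70 and -1.03, and higher in the other lines, at 0.71 to 1.48. Plac8 did the same, at -0.75 and -0.81 against 0.83 to 1.28.

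**Figure D5:**
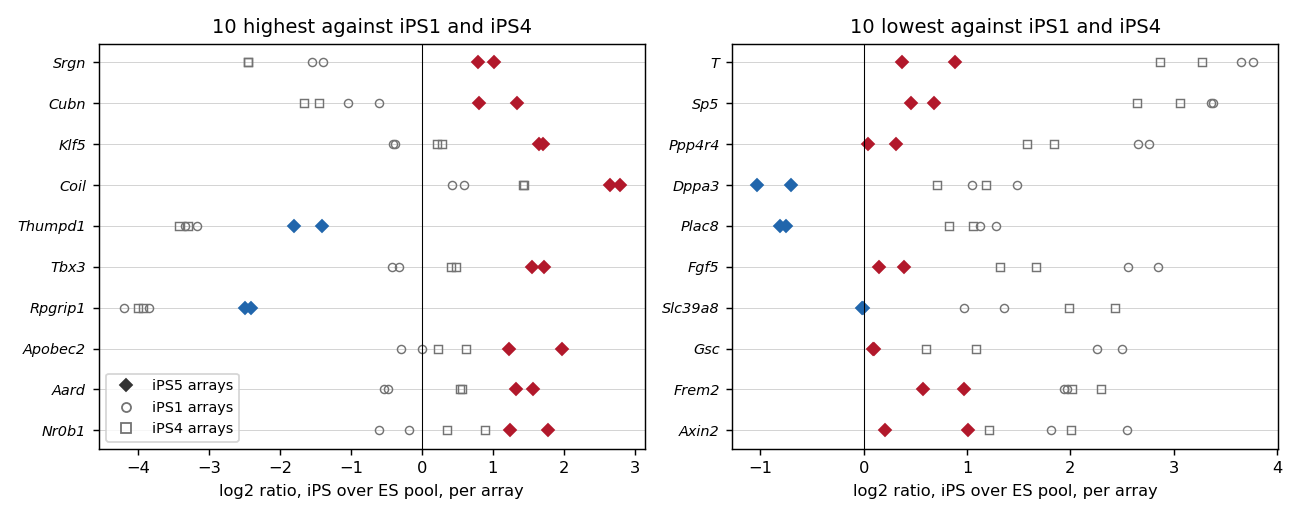
Log2 ratio of iPS over the ES pool per array for the 10 genes highest (left) and the 10 lowest (right) in iPS5 against the mean of iPS1 and iPS4. Filled diamonds are iPS5, red where its mean is above 0 and blue where below. Open circles are iPS1 and open squares iPS4. The diamonds lie beyond all 4 open points in every row, as the rule for choosing these genes required. Srgn, Cubn, Dppa3 and Plac8 fall on opposite sides of 0.

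Counts by list are read against the 10.9% of all genes higher and 10.3% lower in this comparison. Dim genes are in these shares too. Of the lists, 18 of 28 primitive endoderm genes were higher in iPS5 than in the other lines and 1 was lower, and 23 of 39 pluripotency genes were higher and 5 lower. Of 47 fibroblast genes 37 were higher and 1 lower, the median log2 ratio over the ES pool being -0.12 in iPS5 and -0.45 in the others. On the other side, 14 of 27 streak and mesoderm genes were lower and 5 higher, 11 of 18 primed epiblast genes were lower and 2 higher, and 30 of 57 interferon genes were lower and 4 higher. Cholesterol synthesis had 11 of 20 lower and 2 higher, with medians of -0.43 in iPS5 and -0.29 in the others. Sets of genes that lie below the ES pool in the other lines and nearer to it in iPS5 count as higher here, which holds for the fibroblast list. Sets above the ES pool in the other lines and nearer to it in iPS5 count as lower. That holds for the interferon (medians 0.34 in the others and 0.09 in iPS5), streak (0.31 and 0.05) and primed epiblast (0.26 and 0.02) lists. Part of such counts can follow from the dimmer arrays, and that part was not tested.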

How the data were processed

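RNA of 3 iPS lines was hybridised against an ES pool on 6 arrays in 2 dyes. Per the file headers, the deposited scanner files hold the mean intensity of each spot and the median intensity of its local background, with no normalization. Per the labels, amplified RNA was labelled with Cy3 or Cy5. The authors' deposited log2 ratios were used as an alternative, and how they were normalized is not given in the sources used here. Their log2 scale and direction were checked against the scanner values: over bright spots they correlated with the log2 ratio of channel 1 over channel 2 at 0.910, -0.890, 0.935, -0.905, -0.883 and 0.940, with the signs that the labelled dyes give. The column medians lay within 0.025 of 0. A deposited mean over all lines was not used.

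Of 45220 spots 41174 were gene probes. Background was corrected by normexp with an offset of 50 and ratios were normalized by loess within each array in limma 3.58.1 (R 4.3.3), with controls at weight 0. Every ratio was turned to iPS over ES pool. One model with a mean per line and a dye term was fitted to all 6 arrays, leaving 2 residual degrees of freedom beside 4.9 prior ones, and p-values were adjusted by Benjamini-Hochberg over all gene probes. A call is an adjusted p under 0.05. Fold changes are on the scale after the offset, which understates them for dim probes. The number of arrays and the dim signal limit the precision. Symbols were given to 34186 probes by the platform annotation, 30365 of them current in RefSeq GRCm38.p6, 3726 updated by synonym and 95 not in that table, and 6988 had none. A gene is read by its brightest probe, which left 18295 genes. Other probes of a gene can differ from it, and they are given for some genes only. Promoter sequences are those of RefSeq GRCm38.p6.

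The genes named are drawn from several sets. The first are the 15 highest and 15 lowest of those called with 1 sign on both iPS5 arrays. Next are the 10 highest and 10 lowest against the other lines, with both iPS5 arrays beyond the other 4. The 16 transduced genes, the 4 largest called members of each list and the cell type markers follow. Some transduced genes, list members and markers, among them most fibroblast markers, are not given singly. Unnamed transcripts were passed over. Xlr, Mei1, Hmgcs1 and the sex-linked genes not called were named after their values were seen. Members and lists were chosen with earlier results of these data known. On simulated data with 200 changed probes of 41174, the comparison with the ES pool found 76.0% of changes of 0.25 and 100.0% of changes of 0.5 on the log2 scale. The comparison with the other lines found 14.5% and 100.0%. The changes were set on the log2 scale, so the shrinking of dim ratios by the added constant is left out of these shares. The shares are not split by brightness and do not give the power for dim probes. In the data 0.0486% of the dimmest 8235 probes were called against the ES pool, and 54.1% of the brightest 8235. Alternatives were other background corrections, normalizations, filters, probe rules, dye terms and arrays left out. Tables were handled with pandas 2.3.3 and numpy 2.4.6 under Python 3.11.15.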

Additional observations from a re-analysis of the deposited data

Results flagged for a closer look

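The 20 genes most different between iPS5 and the mean of iPS1 and iPS4 are listed because the difference between the lines was itself tested and called, by limma across all probes. The p-values rest on duplicate arrays. On the log2 scale the differences, as iPS5 minus the others, were 2.87 for Srgn, 2.27 for Cubn, 1.76 for Klf5, 1.75 for Coil and 1.71 for Thumpd1. They were 1.60 for Tbx3, 1.55 for Rpgrip1, 1.47 for Apobec2, 1.43 for Aard and 1.39 for Nr0b1. On the lower side they were -2.76 for T, -2.54 for Sp5, -2.03 for Ppp4r4, -1.97 for Dppa3 and -1.86 for Plac8. They were -1.83 for Fgf5, -1.70 for Slc39a8, -1.52 for Gsc, -1.29 for Frem2 and -1.29 for Axin2. The share of the dim signal in these differences was not tested. With no constant added to the signals, the difference was 0.75 for Thumpd1, 0.90 for Rpgrip1, -0.61 for Frem2 and -0.84 for Axin2, and -2.63 for T and 3.79 for Srgn.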

How the results depend on the processing

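Against the ES pool 8040 probes were called, and 2235 with median centring, 2968 with no dye term and 1704 with the iPS5 arrays alone. Leaving out 1 array gave 6749 to 9454. Beyond 2-fold the 228 became 1033 with no offset, 718 with plain subtraction and 443 with arrays scaled to a common spread. Leaving out 1 array gave 228 to 375, the highest without iPS5 array 2. Against the other lines 7134 probes were called, and 0 by limma with no offset (9951 at an unadjusted p under 0.05), 1035 with plain subtraction, 574 with median centring, 1396 with no dye term and 2685 without line iPS1. Leaving out 1 array gave 3496 to 8416. Beyond 2-fold the 108 became 0 with no offset, 268 with plain subtraction and 298 without line iPS4, and 104 to 203 with 1 array left out. The cause of these moves was not tested. A lone array was assumed to vary like the others. The 30 genes named against the ES pool were called under each of these settings, except that 5 did not pass the filter for both channels. Of the 20 named against the other lines, 0 were called with no offset, 17 with plain subtraction and 19 with no dye term, all in the same direction. Mcm4 turned to -0.19 (adjusted p = 0.506 by limma) with the mean over its probes.

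At percentile 99 of the control the shares above background on array 1 were 67.9% (ES) and 53.4% (iPS), and on array 2 63.3% (iPS) and 53.2% (ES). By the other control reporter, chosen after seeing the data, they were 64.6%, 46.9%, 63.1% and 44.4%. Of the 36 lists 16 had more lower than higher genes, and 16 to 19 in the alternatives run on lists. The majority turned with no offset for FGF-ERK, oxidative phosphorylation and p53 genes, without iPS5 array 1 for endothelial and blood, oxidative phosphorylation and ribosomal genes, and without array 2 for other TFIID and Nodal genes. No paired analysis was possible because the labels carry no replicate numbers, other than by dye orientation, which sets 1 array of each line together and is already a term of the fit. The dim arrays, a single ES pool and 1 clone per line limit all of these comparisons.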

Other observations

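Chromosome 8, looked at after the data were seen, held more lower genes than the rest. Of its 811 genes above background 25.8% were lower in iPS5 than in the ES pool and 8.51% higher, against 14.1% and 16.1% of the 15419 genes elsewhere. The median log2 ratio was -0.037 in iPS5, -0.067 in iPS1 and -0.084 in iPS4, all against the same ES pool. Among its 444 genes in the brighter part of all genes, 41.4% were lower and 12.4% higher, against 22.7% and 26.5% of the 7671 brighter genes elsewhere. By the authors' deposited ratios 27.3% of the 811 were lower against 15.0% elsewhere, and with no offset 23.2% against 13.2%. Without iPS5 array 1 it was 19.4% against 10.9%, and without array 2 28.7% against 17.4%. These alternatives were chosen after seeing the data.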
